A study of Mus musculus with 12 samples.

Results

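Transfer RNA (tRNA) genes held 315 of the 45738 regions of sites called for ESRP1, an epithelial splicing regulator, in mouse epidermis (0.689%). A region is a run of single-nucleotide sites on 1 strand with gaps of no more than 10 nt, merged over 3 lists of sites. Regions were selected on the measured positions of their sites: a region of any list was taken when its middle lay in 1 of the 408 nuclear tRNA genes of the GRCm38 annotation. Their number and their place in tRNA genes follow from that choice and are not tested. The sites came from enhanced crosslinking and immunoprecipitation (eCLIP) of epidermal sheets, separated with trypsin from back skin on postnatal day 1 and irradiated with ultraviolet light. All animals were Esrp1FLAG/FLAG, with a FLAG tag on the endogenous protein, and a sample without the tag was not analysed here. The labels name 6 FLAG immunoprecipitates and 6 inputs without antibody, biological replicates 1 to 6, and list 1 holds replicates 1 and 2, list 2 replicates 3 and 4, and list 3 replicates 5 and 6, each called by the authors with input. Each list is thus 1 value for 2 replicates, the read depth behind it is unknown, and over 3 lists the smallest two-sided exact p is 0.25, so lists are given side by side with no test. Of 10 keratinocyte marker genes 7 held a region in all 3 lists, with no site in Krt14 or Krt1, against 0 of 7 fibroblast, 1 of 4 melanocyte, 1 of 3 immune and 0 of 3 endothelial markers.

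A tRNA carries an amino acid to the ribosome and reads the messenger RNA with its anticodon. The gene is transcribed by RNA polymerase III from promoter elements inside it, the A box and B box, and the transcript is then trimmed at both ends by RNase P and RNase Z. The mature molecule folds into an acceptor stem, which joins both ends, a D arm, an anticodon arm, a variable part and a T arm. Its bases are densely modified, and some of these modifications stop reverse transcriptase, the enzyme whose stops mark sites in eCLIP. It also stops at the end of an RNA. Modifications and full-length cDNAs were not measured here, and crosslinks cannot be told apart from such stops in lists of sites. Most tRNAs are encoded by many near-identical gene copies. In bulk tissue, more binding per molecule and more molecules of a tRNA cannot be told apart either.

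Sequence of a tRNA gene with a region was at hand for 3 genes, each covered by the RefSeq promoter window of a neighbouring gene (GRCm38.p6). These stretches are shown because they place the sites against the anticodon. Capitals mark the nucleotides with a site in any list, and positions count from 1 at the first nt of the gene. The first stretch runs from nt 1 of a histidine tRNA gene, chr3:96452495-96452524, plus strand, where a further site lay at nt 0, the nt before the gene. The second covers nt 28 to 57 of that gene, chr3:96452522-96452551. The third covers nt 26 to 55 of a threonine tRNA gene, chr7:35234789-35234818, minus strand. The last covers nt 29 to 58 of a leucine tRNA gene, chr7:120917545-120917574, plus strand.
n-THgtg7, 5′ end: gccgtGatcgtatagtggttagtactctgc
n-THgtg7, anticodon arm: tgcgttgtgGccgcagcaacctcggttcga
n-TTagt9, anticodon arm: cgcctgtctAGTAaacaggagatcctgggt
n-TLaag4, anticodon arm: tggattaagGctccaGtctcttcgggggcg

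In each anticodon arm shown, a site lay in the anticodon or right after it, and the 5′ stretch of n-THgtg7 held its site at nt 6. The histidine anticodon (GTG in DNA letters) occupied nt 34 to 36 and the site was at nt 37. The threonine anticodon (AGT) occupied nt 35 to 37 and sites lay at nt 35, 36, 37 and 38. The leucine anticodon (AAG) occupied nt 35 to 37, with sites at nt 38 and 44. The annotation used gives no strand, and the strand of the sites was taken as that of the tRNA. The B box core GGTTCNA, with N for any base and searched on both strands, was present on the strand of the sites in 3 of these 3 genes and on the other strand in 0. For scale, 9.73% of 32851 RefSeq promoter windows of 300 nt hold it on either strand. No tRNA gene had sites on both strands (0 of 174 with a region), and 154 regions lay on the plus and 161 on the minus strand.

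Regions in tRNA genes recurred between lists. Of the 315 regions, 166 (52.7%, 95% exact binomial interval 47.0 to 58.3) were found in all 3 lists, 68 in 2 lists and 81 in 1. Over all regions of the series 21.1% were found in all 3 lists. The share was 33.8% (32.03 to 35.59) of 2761 regions in pseudogenes, 19.0% (18.6 to 19.4) of 33454 in protein-coding genes and 16.1% (7.62 to 28.3) of 56 in other small RNA genes. Regions of near-identical copies are not independent, so these intervals cover counting error only and no test was made. When regions with the same anticodon and the same positions in every list were counted once, 105 of 203 (51.7%) were found in all 3 lists. Of the regions in a single list, 56 were in list 3, 21 in list 1 and 4 in list 2.

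**Figure D1:**
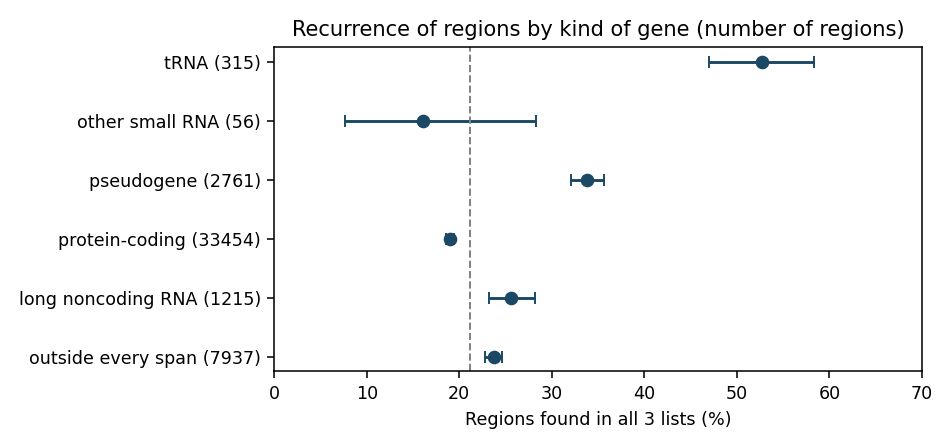
Percentage of regions found in all 3 lists (x axis, %) for each kind of gene (y axis, number of regions in brackets). Points are shares, bars are 95% exact binomial intervals and the dashed line is the share over all regions, 21.1%. The tRNA regions sit at 52.7% and the pseudogene regions, next in order, at 33.8%.

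tRNA sites numbered 747 in list 1, 414 in list 2 and 715 in list 3, which was 1.01%, 1.03% and 1.33% of all sites of the list. They lay in 233, 200 and 282 regions of 138, 135 and 162 genes. Scores are the authors' own, of no stated scale, and were read only as ranks within a list. The median score of tRNA sites was 51.7 in list 1, 32.9 in list 2 and 43.9 in list 3, against 11.6, 14.7 and 17.7 over each whole list. Of the tRNA sites 75.9%, 59.4% and 60.4% were in the upper quartile of their list by score. Exactly the same nucleotide was a site in all 3 lists at 330 positions, which was 44.2%, 79.7% and 46.2% of the tRNA sites of lists 1, 2 and 3. Over all sites of each list the same measure was 19.8%, 36.4% and 27.1%. The tRNA regions were short, with a median of 4 nt over all and 5 nt over those in all 3 lists, in genes with a median length of 72 nt.

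Listed sites gathered in the 5′ part and the anticodon arm of the tRNA, and none lay in the 3′ acceptor strand. Whether a stop so near the 3′ end can yield a listed site was not tested. Parts were set by distance from the gene's ends: nt 1 to 9 for the 5′ acceptor strand and linker, 10 to 26 for the D arm, 27 to 43 for the anticodon arm, the 24th to 8th nt from the end for the T arm and the last 7 nt for the 3′ acceptor strand. The 5′ acceptor strand and linker held 32.3% ± 1.27 of sites (SD, n = 3 lists), the anticodon arm 29.6% ± 2.84 and the D arm 22.3% ± 4.47. The nucleotides before the gene's start held 6.81% ± 1.03, the variable part 5.07% ± 2.03 and the T arm 3.99% ± 0.960. By regions, 123 had their middle in the anticodon arm (63 in all 3 lists), 72 in the D arm (40), 72 in the 5′ acceptor strand and linker (46), 32 in the T arm (8) and 16 in the variable part (9). These parts fit tRNAs without an intron, and their fixed borders can misplace sites next to a border. The 4 regions in arginine tRNA genes with anticodon UCU lie in longer genes, of 86 or 87 nt, so their part is uncertain.

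**Figure D2:**
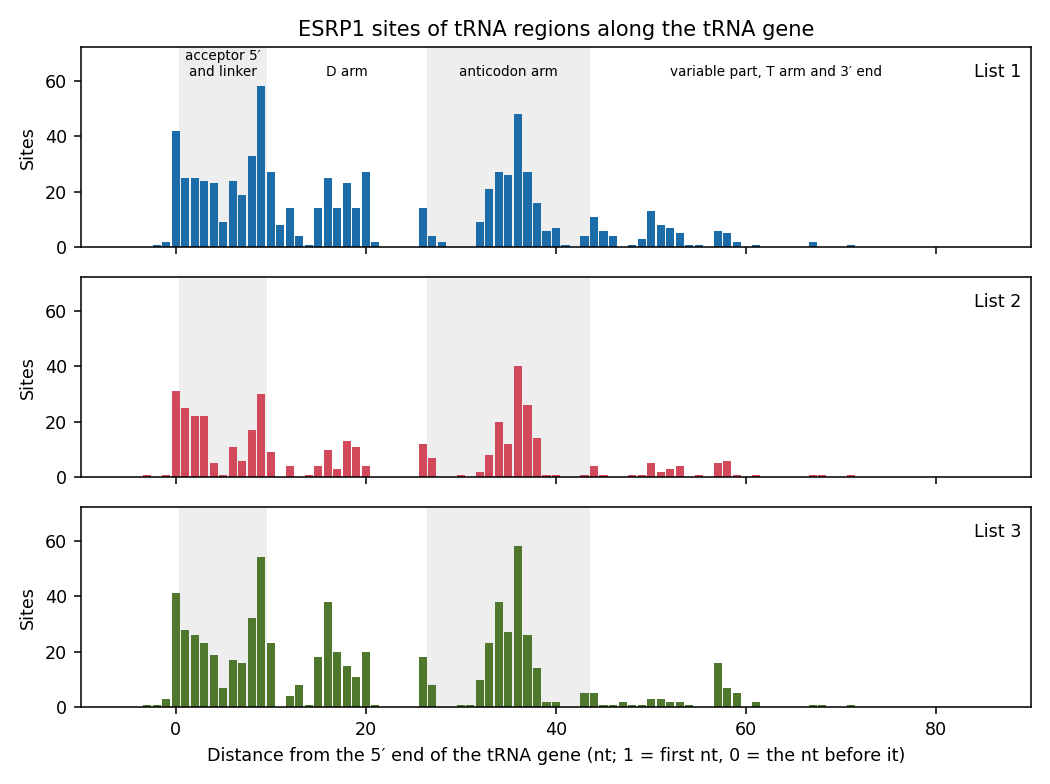
Number of sites (y axis) at each distance from the 5′ end of the tRNA gene (x axis, nt) for the tRNA regions, 1 panel for each list. Shading marks nt 1 to 9 and nt 27 to 43. All 3 lists show high counts at nt 0, 9 and 36 and no site from nt 22 to 25.

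A few single nucleotides held many sites in every list. At nt 36 there were 48, 40 and 58 sites in lists 1, 2 and 3 over 71 genes, the most in lists 2 and 3. At nt 9 there were 58, 30 and 54 sites over 67 genes, the most in list 1. Nt 0 had 42, 31 and 41 sites over 45 genes. Stretches of high counts were separated by empty ones. From nt 15 to 20 there were 284 sites over the lists, at nt 21 there were 3, from nt 22 to 25 there were 0 of 1876, and at nt 26 there were 44. From nt 27 to 31 there were 24 sites, and from nt 32 to 38, around the anticodon, 492. Beyond nt 59 only 13 sites remained, and how well sites near the 3′ end can be detected was not tested. All 13 were in serine, leucine and arginine genes of 82 to 86 nt. A given distance from the 5′ end is therefore not the same place in long and short tRNA genes. The stretch from nt 32 to 38 drew on 128 genes of 17 amino acids, whereas 319 of the 381 sites from nt 0 to 4 lay in cysteine tRNA genes. Without cysteine the share of sites from nt 0 to 4 was 4.19% ± 0.665 (SD, n = 3 lists), against 21.04% ± 3.75 with it, and that from nt 32 to 38 was 30.98% ± 4.50, against 26.7% ± 3.14.

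Within 50 nt of the annotated genes, sites outside them lay almost only just before the 5′ end. Over all 408 nuclear tRNA genes, whether or not they held a region, 1779 sites lay within the gene and 280 at the nt before it or up to 4 nt further. In the 50 nt after the gene there were 0 sites in each list. From 5 to 50 nt before it there were 6, which were 2 nucleotides, each a site in all 3 lists, before the threonine tRNA genes n-TTtgt2 and n-TTtgt3. The stretch after the gene, where RNase Z trims, held no site in these lists. Before the gene, where RNase P trims, sites lay mostly in the last nucleotides. Stops at the end of an RNA cannot be told apart from crosslinks here. A site at nt 0 therefore need not lie in the leader, and binding to untrimmed tRNA was not tested. The lists carry no counts, so no upper limit can be set for the empty stretches.

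tRNA genes with a region belonged to 19 of 20 amino acids, but unevenly. A region was present in 174 genes (42.6%) and a region found in all 3 lists in 116 (28.4%). Regions in all 3 lists were present in 14 of 17 proline genes, and for glutamine in 11 of 16, glycine 16 of 28, histidine 6 of 11, cysteine 29 of 57, serine 11 of 22 and threonine 9 of 18. Leucine had 9 of 26, phenylalanine 2 of 7, aspartate 3 of 16 and isoleucine 2 of 16. At the low end were asparagine (1 of 13), lysine (1 of 26), arginine (1 of 24) and valine (1 of 24). Alanine (33 genes), glutamate (20), methionine (16), tryptophan (8) and tyrosine (10) had 0 in all 3 lists, and tyrosine had no region in any list. tRNA abundance was not measured, so how far these counts follow the amount of each tRNA was not tested. Of the 174 genes 48 (27.6%) overlap another annotated gene, 38 of them a long noncoding RNA gene alone, against 35.05% of all nuclear tRNA genes.

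**Figure D3:**
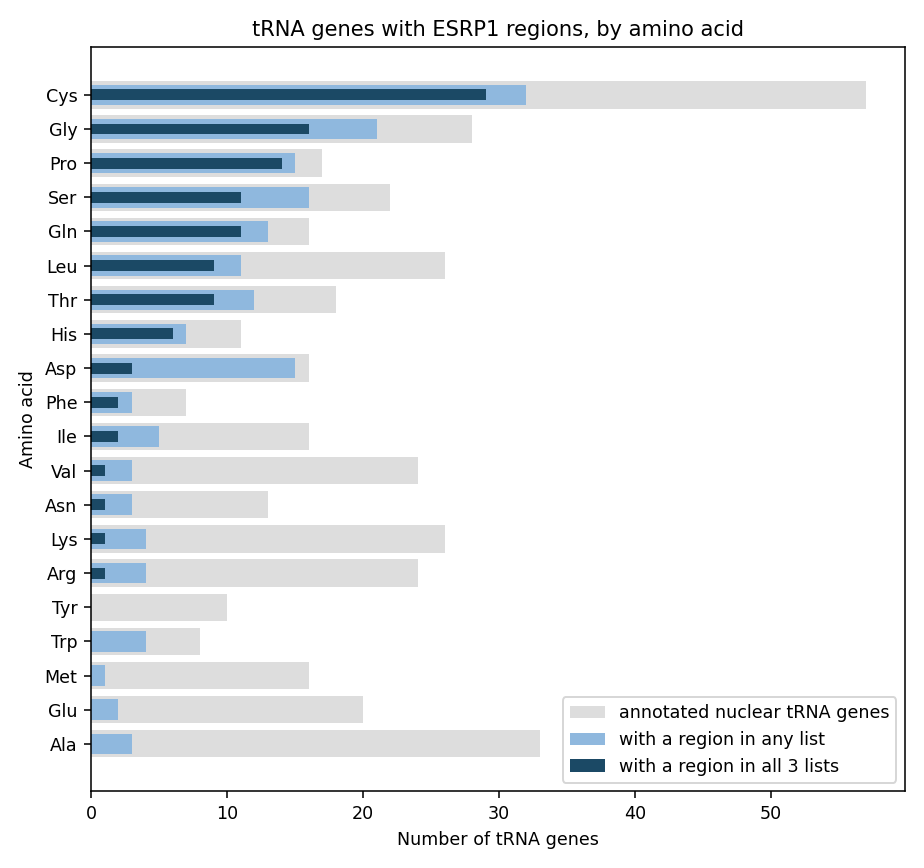
Number of nuclear tRNA genes (x axis) for each amino acid (y axis). Wide grey bars are annotated genes, light blue bars those with a region in any list and dark bars those found in all 3 lists. Proline and glutamine fill most of their grey bars, while alanine, with 33 genes, has no dark bar.

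Genes of the same amino acid differed by anticodon in several cases. Among glycine genes all 7 with anticodon UCC and 9 of 14 with GCC had a region in all 3 lists, and the 6 with CCC had no region. Among leucine genes 5 of 6 with AAG had such a region, while the 10 with CAG and the 4 with CAA had no region at all. Among glutamine genes 9 of 10 with CUG and 2 of 6 with UUG had such a region. For proline the counts were 6 of 6 with AGG, 3 of 3 with CGG and 5 of 8 with UGG. For valine, 1 of 12 genes with CAC had one, while 2 of 3 with UAC held regions in fewer lists and the 9 with AAC had no region.

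Cysteine tRNAs carried the highest-ranked regions. Of the 57 cysteine genes, all with anticodon GCA, 48 lie in a cluster on chromosome 6 (first gene start 48133937, last gene end 48363603), which holds no other kind of tRNA gene. The cluster held 38 of the 315 tRNA regions (12.1%), in 24 genes, and 24 of the 38 (63.2%, 95% exact binomial interval 45.99 to 78.19) were found in all 3 lists. Outside it 142 of 277 regions (51.3%, 45.2 to 57.3) were. The intervals overlap. The 5 tRNA regions with the highest mean score percentile over the lists were all at the 5′ end of cluster genes: n-TCgca5, n-TCgca14, n-TCgca17, n-TCgca9 and n-TCgca13. The first of them, n-TCgca5 (chromosome 6, 48341588 to 48341659), had 5 sites in each list, from nt 0 to nt 4, and its best scores were 231, 176 and 214, a mean percentile of 99.0. A median region of the cluster reached the 98.3, 98.0 and 96.2 percentile of lists 1, 2 and 3, and one outside the cluster the 85.4, 76.1 and 76.7 percentile. The latter covers all amino acids. For cysteine genes outside the cluster alone it was the 94.7, 88.1 and 94.3 percentile. The cluster value leaves out 11 cluster regions whose middle lay just before the gene.

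The same sites recurred over the copies of the cluster. In 15 plus-strand genes with a region at the 5′ end, nt 1, 2 and 3 were sites in all 15 genes in every list, and nt 0 in 14 of 15 in every list. At nt 4 there was a site in 15 genes in list 1, 5 in list 2 and 15 in list 3. The highest score of these regions ran from 172 to 255 with a median of 188 in list 1, from 134 to 176 with a median of 146 in list 2, and from 156 to 220 with a median of 180 in list 3. Minus-strand copies of the cluster were lower: their regions at the 5′ end had medians of 45.8, 18.9 and 34.6, over 11, 12 and 13 copies, and their range lay below that of the plus-strand copies in every list. These minus-strand copies include 11 whose region had its middle just before the gene and is not among the 315.

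The lists differed at nt 36 of the cysteine tRNA. In the cluster 15 genes had a site there. All 15 had it in list 3, with scores from 38.5 to 159, 9 in list 2, with 3.71 to 60.4, and 4 in list 1, with 12.0 to 75.1. The 4 genes of list 1, n-TCgca6, n-TCgca9, n-TCgca48 and n-TCgca49, had the site in all 3 lists. Cysteine genes elsewhere had such a site in 6 genes in each list, with median scores of 55.0, 26.01 and 61.9, and 5 of 7 such genes had it in all 3 lists. Their regions at the 5′ end had medians of 112, 85.4 and 108.5. Of these 9 genes 8 held a region, on chromosomes 6, 9, 11 and 17, and 12 of their 15 regions were found in all 3 lists. Regions with their middle in the first 4 nt made up 68.0%, 55.2% and 44.7% of cluster regions in lists 1, 2 and 3 and 57.1%, 53.8% and 53.8% of those of the other cysteine genes. For other amino acids they made up 5.15%, 6.33% and 5.19%.

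**Figure D4:**
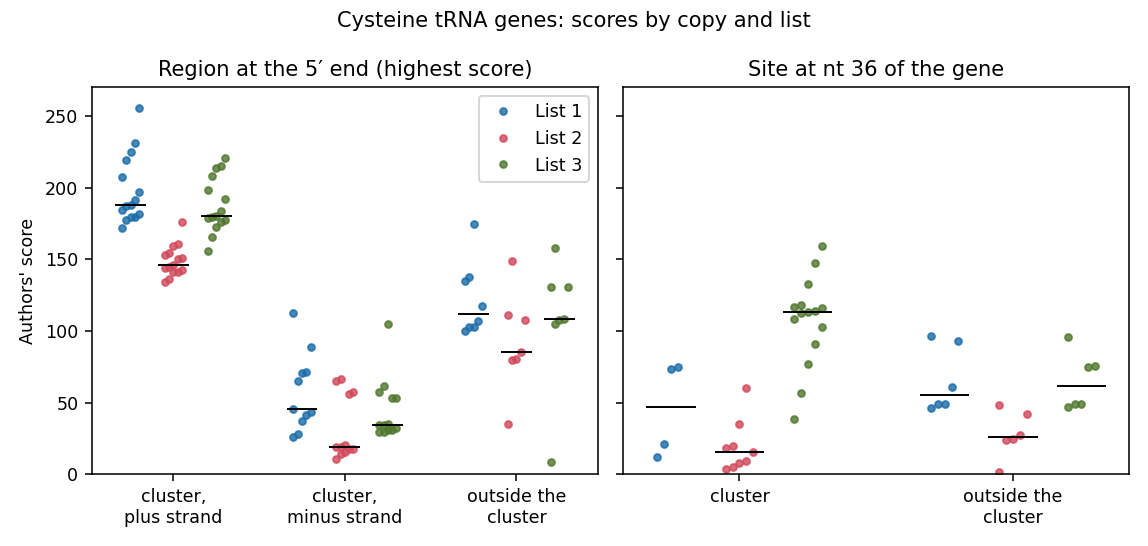
The authors' score (y axis) in cysteine tRNA genes, as the highest of the region at the 5′ end (left) and of the site at nt 36 (right), by location (x axis) and list (colour). Each point is 1 gene copy and black lines are medians. At the 5′ end the plus-strand copies of the cluster have medians of 188, 146 and 180, and at nt 36 the cluster has 4, 9 and 15 copies with a site in lists 1, 2 and 3.

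Glycine tRNAs held long regions at the 5′ end. All 7 genes with anticodon UCC had a region found in all 3 lists that ran from nt 0 to nt 20 when merged over lists. In list 2 this region held sites at nt 8 and 10 alone in n-TGtcc1, n-TGtcc4, n-TGtcc5 and n-TGtcc6. Over the 7 genes the highest score of the region was between 107.9 and 117 in list 1, 45.96 and 106 in list 2, and 126 and 150 in list 3. The copies were farthest apart in list 2. In n-TGtcc3 (chromosome 1, 171102756 to 171102827) it held 11, 5 and 6 sites, the best scoring 114, 106 and 143. In n-TGtcc5, on the same chromosome, it held 9, 2 and 7, with 116, 46.4 and 146. The highest-ranked glycine region was another, nt 0 to 8 of n-TGgcc1 on chromosome 4, with scores of 130, 156 and 118.

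Threonine tRNAs held sites at the anticodon. With anticodon AGU, 6 genes had a region covering exactly nt 35 to 38, the stretch printed for n-TTagt9, and 5 of these were in all 3 lists. The highest scores of the 5 were 28.4 to 40.0, 34.0 to 54.6 and 31.8 to 58.7 in lists 1, 2 and 3, and n-TTagt9 had 40.0, 39.4 and 51.6. Of the 4 genes with anticodon UGU that had a region at this place, 3 scored above these ranges in every list, and n-TTtgt4, with a region at nt 27 to 38 in list 2 alone, scored 9.10. The region at nt 34 to 37 of n-TTtgt3 (chromosome 14, 51065168 to 51065240) reached 133, 154 and 202, the highest mean rank of the threonine regions in all 3 lists. That of n-TTtgt1, at nt 33 to 37, reached 120, 130 and 186. In n-TTtgt1 a second region, in the D arm at nt 15 to 18, had scores of 122, 70.9 and 168, and with 9, 6 and 8 sites this gene was among the 10 tRNA genes with most sites.

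Histidine tRNAs had a fixed pair of regions. In 6 genes a region from nt 0 to 6 and a single site at nt 37 were both found in all 3 lists. The scores of the first were 29.6 to 44.4, 18.1 to 21.8 and 30.8 to 39.3, and those of the second were 29.4 to 45.6, 18.2 to 21.8 and 29.7 to 39.5. Both regions of the gene n-THgtg7, printed above, lie in these ranges.

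Proline and glutamine tRNAs held regions that began at nt 8 or 9 and others at the anticodon. In glutamine genes 8 regions began at nt 9, and 7 of them were found in all 3 lists. Of these 7, 6 ran to nt 20 and had equal positions in every list, with list 2 sites at nt 18 and 19 alone. In proline genes 11 regions began at nt 9 and 12 at nt 36, and all of these were found in all 3 lists. At nt 57, in the T arm, 9 further proline regions began, of which 3 were in all 3 lists. The region from nt 36 to 45 of n-TPagg7 (chromosome 7, 98815676 to 98815747) had highest scores of 114, 69.4 and 72.9. In glutamine genes 12 regions lay in the D arm, 10 of them in all 3 lists, and 10 in the anticodon arm, 8 of them in all 3. The region from nt 8 to 19 of n-TQttg2 led them, with scores of 111, 84.8 and 63.4.

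Aspartate tRNAs differed between lists. Of 16 genes 15 held a region, but only 5 of 35 regions were in all 3 lists. List 2 had 10 aspartate sites, against 55 in list 1 and 69 in list 3. Of the other regions 12 were in lists 1 and 3, 12 in list 3 alone and 6 in list 1 alone. The region from nt 9 to 17 of n-TDgtc1 on chromosome 5 was high in each list, with scores of 164, 115 and 111. Tryptophan sites were in list 3 alone (0, 0 and 7 sites), and glutamate sites in lists 1 and 2 (9, 4 and 0).

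Serine and leucine tRNAs, which have a long variable arm, held sites there as well. Leucine genes held 19, 5 and 9 sites in the variable part in lists 1, 2 and 3, against 13, 10 and 10 in the anticodon arm. Of the former, 8, 2 and 3 were at nt 44, the first nt past the fixed border of the anticodon arm. The anticodon began at nt 35 in n-TLaag4 and at nt 34 in n-THgtg7, so the part of these sites is uncertain. Serine genes held 22, 10 and 9 in the variable part and 18, 12 and 28 in the D arm. The highest-ranked serine region spanned nt 0 to 26 of n-TSgct8, with scores of 68.2, 28.4 and 65.7. The serine gene n-TStga1 had many sites (10, 5 and 7) but ranked low, its region at nt 26 to 50 reaching the 68.4, 61.3 and 32.4 percentile of lists 1, 2 and 3. For leucine the highest-ranked region in all 3 lists was nt 38 to 44 of n-TLaag5 (66.6, 27.6 and 36.6), the same place as in the printed n-TLaag4.

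The remaining amino acids had few regions in all 3 lists. Phenylalanine gene n-TFgaa1 had 2, at nt 37 to 46 and nt 58 to 59, the latter with scores of 70.8, 41.3 and 63.9. Lysine gene n-TKctt6 had 1 at nt 16 to 21 (99.7, 28.9 and 102), and valine gene n-TVcac5 had 1 at nt 18 to 26 (86.8, 45.9 and 97.2). Arginine gene n-TRtct1, of 86 nt, had 1 at nt 51 to 71 (66.6, 36.3 and 89.3). Isoleucine gene n-TIaat3 and asparagine gene n-TNgtt4 each had 1 spanning nt 27 to 37, with scores of 29.1, 27.1 and 58.9 in the first and 52.95, 16.8 and 54.0 in the second. By percentile within the list, list 2 was the lowest for each region with scores given here except that of n-TIaat3, at 74.6, 75.3 and 86.2 in lists 1, 2 and 3.

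**Figure D5:**
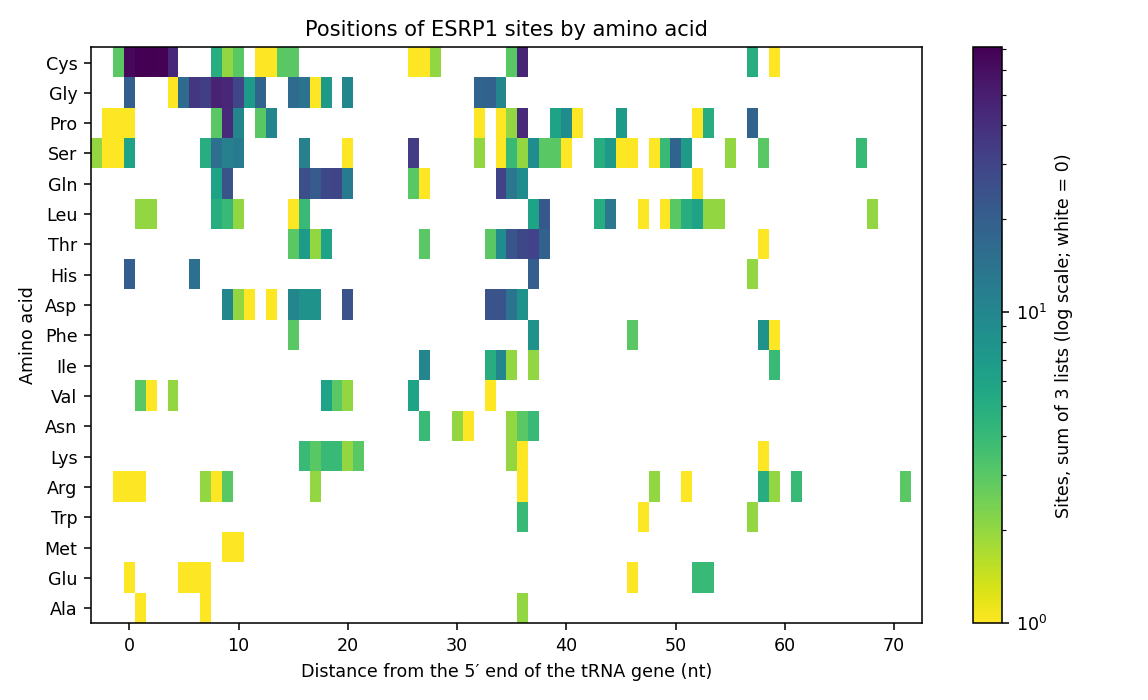
Number of sites, summed over the 3 lists (colour, log scale, white where there is none), at each distance from the 5′ end of the tRNA gene (x axis, nt) for each amino acid (y axis). Cysteine stands out from nt 0 to 4, histidine shows nt 0, 6 and 37, and threonine is darkest from nt 35 to 38.

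Many regions could not be separated by position. Of the 166 regions in all 3 lists, 93 shared their positions in every list with another tRNA gene of the same anticodon, and 105 different series of positions remained. The largest such group was 11 cysteine genes with nt 0 to 4 in lists 1 and 3 and nt 0 to 3 in list 2. No score was shared between genes in lists 1 and 2 (0 and 0 values), and 1 value was shared in list 3, so copies with equal positions still differed in score. How reads with several alignments were placed was unknown (not given in the sources used here), and the part of shared reads in these groups was not tested.

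The rule left out some regions by a nucleotide or less. Within 2 nt of a gene's edge 28 tRNA regions lay inside and 14 regions lay outside, all of them at the 5′ end. Of the 14, 11 were in cysteine genes of the cluster and 7 had their middle exactly between the first nt and the one before. Their highest scores were 21.3 to 88.6, 10.5 to 66.6 and 7.78 to 61.4 in lists 1, 2 and 3. Those just inside were 41.3 to 255, 14.0 to 176 and 8.29 to 220.

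Messenger RNAs of the tRNA pathway also held ESRP1 regions. Over all protein-coding genes 17.2% had a region in all 3 lists, and the groups of pathway genes below lay on both sides of it, from 8.33% to 33.3%. Of genes of RNA polymerase III and its transcription factors and regulators 7 of 22 had one, led by the subunit gene Polr3k with 4. The 9 Polr3k regions found in any list together held 17, 5 and 10 sites in lists 1, 2 and 3. Of genes of aminoacyl-tRNA synthetases, which charge tRNAs, and their partner proteins 8 of 24 had one. The partners, which do not charge tRNAs, were Aimp1, Aimp2 and Eef1e1, and Aimp1 was among the 8. There were 3 regions each in Farsa and Farsb, which form the phenylalanine enzyme, and 2 in the histidine enzyme gene Hars. Of tRNA modification genes 8 of 38 had one, Trmt6, a subunit of the adenosine methyltransferase of the T arm, with 3. Of end processing and splicing genes 2 of 24 had one, with 3 such regions in the tRNA ligase gene Rtcb. The 11 Rtcb regions found in any list together held 23, 10 and 25 sites. Of export and delivery genes 2 of 9 had one, with 2 regions in Eef1a1, whose many processed copies make its count uncertain. No p is given for these lists.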

How the data were processed

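The authors deposited 3 lists of sites, 1 nt wide with a strand and a score; per the file headers each was called with input, on 2 replicates. The scale of the deposited score is not stated by the authors. The submitters' processing notes name GRCm38 and mm10 as builds and HOMER, HISAT2 2.1.0 and cutadapt 1.16 as tools, without roles. The membrane between 75 and 140 kDa was cut out, per the labels' protocols. Caller settings, duplicate removal and placement of multiply aligned reads were unknown (not given in the sources used here).

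Sites at most 10 nt apart were joined per list and strand and merged over lists (Python 3.11.15, pandas 2.3.3, checked on simulated sites). Amino acid and anticodon were read from RefSeq gene symbols (n-Tcgca44 as cysteine), and the 5′ end from the strand of the sites. The cluster is the longest run of tRNA genes on chromosome 6 with gaps under 50000 nt. Score percentiles are ranks within a list. Regions were assigned to kinds of gene in the order tRNA, other small RNA, pseudogene, protein-coding and long noncoding RNA. A protein-coding gene was counted on the strand with most sites.

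Regions, gene lists and tests were chosen with earlier results of these data known. Named tRNA genes are the 10 with most sites, the highest-ranked of each amino acid and the 5 highest-ranked regions, all among regions in all 3 lists by mean score percentile; pathway genes are those with 2 or more regions in all 3 lists. Others, such as n-TTtgt2, n-TTtgt4, 3 cysteine genes with a site at nt 36 and the genes with a printed sequence, were chosen after their values were seen. The 6 libraries of each group are biological replicates per the labels.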

Additional observations from a re-analysis of the deposited data

How the results depend on the processing

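The counts of tRNA regions (315), of those in all 3 lists (166) and of tRNA genes with a region (174) stayed within 1.5 times of these values under every alternative run, except that 203 regions, 105 of them in all 3 lists, remained when equal positions were counted once, an alternative chosen after seeing the data. Joining within 5 nt or 20 nt gave 44.9% and 61.0% of tRNA regions in all 3 lists (18.7% and 23.49% of all regions). Leaving out a list gave 63.8% (without list 1), 65.6% (list 2) and 66.8% (list 3) in both others (30.5% to 38.6% of all regions), since fewer lists had to hold the region. The median position of region middles, nt 32.5, was nt 27 with joining within 5 nt and nt 25.5 within 20 nt. The share of regions in the cluster, 12.1%, was 15.4% with joining within 20 nt and 14.7% with any overlap. With the middle rounded down, chosen after seeing the data, 322 regions were kept, 171 in all 3 lists. No paired analysis was possible because each list pools 2 replicates with their inputs. The lists hold no counts, so depth limits cannot be given.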
